A study of Mus musculus with 8 samples.

Results

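Gamma-delta (γδ) T cells were the 242 cells, of 25199 that passed the cell filters and 42550 barcodes deposited, that carried the constant segment of the T cell receptor δ chain together with another γδ gene; they were thus chosen by measured UMI counts. A member had fewer than 0.5% of its unique molecular identifiers (UMIs, counts of distinct captured transcripts) in Krt5, Krt14, Krt15, Krt13 and Krt6a, at least 2 UMIs in the CD3 genes Cd3e, Cd3d and Cd3g together, at least 1 UMI of Trdc, at least 1 UMI of Trdv4, Cd163l1, Tcrg-C1, Il17a or Blk, and no Cd4 UMI. Of 5445 CD3+ cells with low keratin, 295 held Trdc, of which 51 lacked a further γδ gene and 2 held Cd4. The 242 members came from all 8 libraries, with 23 and 31 in the N libraries (N1 and N2) and 18 and 44 in the E libraries (E1 and E2). Y1 gave 7 and Y2 105 of them, EY1 gave 9 and EY2 gave 5.

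The libraries were single-cell RNA-seq of sorted viable cells from mouse tongue epithelium at day 15 of transgene induction, 2 libraries for each of 4 groups. All groups carried Krt14-CreERT and LSL-rtTA, and by the study's methods a tetON_H2B-GFP reporter, and all received tamoxifen into the tongue and then doxycycline chow. N carried neither oncogenic transgene, E carried tetON_E6-E7 (the HPV16 oncogenes), Y carried tetON_YAP1S127A (a constitutively active YAP), and EY carried both. The mice were adult littermates. The Krt14 promoter drives Cre in basal epithelial cells, so the transgenes were not directed to the γδ T cells themselves, and each comparison between groups is of γδ cells in epithelia that differed in their keratinocytes. The title of N2 names a pair of animals, and no label says whether a library pooled animals.

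γδ T cells carry a T cell receptor made of a γ and a δ chain in place of the α and β chains. In mice, cells whose γ chain uses the Vγ6 segment, usually paired with Vδ1 (encoded by Trdv4), arise in the fetus, settle in mucosal tissues such as tongue and gingiva, and are programmed by transcription factors that include c-MAF (Maf) and SOX13 to make IL-17A when they sense IL-23 and IL-1. IL-17A acts on epithelial cells and draws neutrophils into the tissue.

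The gate genes themselves described the members and carry no test. Trdc had a median of 12.5 UMIs per member, and 10 members passed on a single Trdc UMI. Trdv4 was detected in 81.8% of members, Tcrg-C1 in 80.2%, Cd163l1 (the scavenger receptor SCART1) in 78.5%, Blk (a SRC-family kinase) in 58.7% and Il17a in 50.8%. Of the 5 further genes, members held 1 in 25 cells, 2 in 28, 3 in 49, 4 in 81 and all 5 in 59, and 2 members passed through Il17a alone. With each cell thinned to 2000 UMIs, Trdc remained detected in 94.96% and Il17a in 42.9%.

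Trdc was rare in CD3-negative Ptprc+ cells and in keratin-high cells. It was detected in 1.47% of 5164 CD3-negative Ptprc+ cells (median 9310 UMIs per cell) and in 0.20% of 7004 keratin-high cells (median 14943 UMIs), both deeper than the γδ cells (median 3913.5 UMIs); after thinning these shares were 0.64% and 0.014%. Trdv4 was detected in 2.25% of the CD3-negative Ptprc+ cells, and Cd163l1 in 0.33%. This class did not exclude natural killer cells, so these shares are not a pure background rate. Intervals and detection limits in this text cover counting error only.

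The members just inside the gate and the cells just outside it often held the same genes. The 25 members with 1 further gate gene had a median of 7 Trdc UMIs, 17 of them held Nkg7 (a cytotoxic granule protein), 14 held Klrd1 (the NK receptor CD94), and 7 held Maf. The 51 cells just outside, with Trdc and no further gate gene, had a median of 3 Trdc UMIs, and 44 held Nkg7, 36 Klrd1, 24 Xcl1, 22 Trac, 10 Cd8a or Cd8b1, and 8 Maf. Other Trdc+ cells that failed a single limit were fewer, 6 by keratin content, 14 by the minimum of 1000 genes and 3 by a single CD3 UMI.

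Genes the gate did not use mostly went with the label. The CD4 and CD8 classes were chosen without Trdc, so the gates partly set the contrast with them. Tcrg-V6 (Vγ6, at chr13:19190356-19190929 of GRCm38, plus strand) was detected in 36.0% of γδ cells, in none of 847 CD4 T cells and in 0.19% of 3143 CD8 T cells. Tcrg-V1 was detected in 9.09% of γδ cells, Tcrg-V5 in 7.44% and Tcrg-V4 in 2.48%. Counts made from transcript ends capture V segments poorly, so these shares understate V use and do not show a productive rearrangement. Trac, the α chain constant segment, was detected in 16.1% of γδ cells against 92.0% of CD4 and 92.4% of CD8 T cells. The β chain constant segments were present, with Trbc1 in 64.0% and Trbc2 in 79.8% of members. In the CD4 T cells of N1, N2, E1, E2 and Y2, Trbc1 was detected in 42.4% to 63.3% and Trbc2 in 82.9% to 94.4%. Trbc1 thus did not set members apart from CD4 T cells. Of 3 tested α and β chain genes, only Trac was lower than in CD4 T cells, and Trac and Trbc2 were lower than in CD8 T cells. No member held Foxp3 (0 of 242 cells, which allows up to 1.24% of cells with a UMI), and 2 held Cd8a or Cd8b1.

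Across the series, 1520 to 5407 cells passed the filters per library. Median depth was 3913.5 UMIs per γδ cell, 5092 per CD4 T cell and 5725 per CD8 T cell, and per library the γδ median ran from 2708 in N1 to 9163 in EY1. The γδ cells of a library summed to between 15244 UMIs in EY2 and 406729 in E2. No barcode was a member in more than 1 library, and 3 of the 242 member barcodes were also a cell in another library. Doublets were not removed, and a doublet caller marked no member as a doublet.

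Markers of other cell types were low in most libraries and high in a few. The 10 keratinocyte markers summed to between 379 CPM (counts per 1000000 UMIs) and 2886 CPM in γδ cells, 10 neutrophil markers to between 27.4 and 267 CPM in 6 libraries but to 1178 CPM in EY1 and 722 CPM in EY2, and 10 macrophage markers to between 14.8 and 645 CPM. Of these lists 4 neutrophil and 2 macrophage markers had no UMI in any γδ cell. The 10 natural killer markers summed to between 0 and 374 CPM, highest in E2, and the 5 B and plasma cell markers to at most 36.9 CPM. The 10 dendritic and Langerhans cell markers summed to 10902 CPM in N2 and 11390 CPM in EY1 against 382 CPM or less elsewhere. This came from 1 member in each of these libraries. The N2 cell held 793 Cd74, 466 H2-Ab1, 377 H2-Aa, 223 H2-Eb1 and 22 Cd207 UMIs among 23547, with 6 Trdc UMIs, and the EY1 cell held 428 Cd74 UMIs and 36 Trdc UMIs among 28732. The other members held at most 22 Cd74 UMIs. Whether these 2 droplets held more than 1 cell was not tested, and the counts of genes called are also given without them.

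γδ cells made up very different shares of CD3+ cells from one library to the next. The N libraries held 5.16% and 4.19%, the E libraries 6.38% and 7.09%, the Y libraries 0.326% (Y1) and 16.03% (Y2), and the EY libraries 2.94% and 2%. On this denominator the N and E libraries lay close together, whereas the Y libraries held both the lowest and the highest share, with exact (Clopper-Pearson) 95% intervals of 0.131% to 0.671% in Y1 (7 of 2146 cells) and 13.3% to 19.1% in Y2 (105 of 655 cells). The spread between the Y libraries was larger than any difference between groups.

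The share did not differ detectably with either transgene. Libraries with YAP1S127A averaged 5.32% ± 7.22 (SD, n = 4) and those without it 5.71% ± 1.28 (SD, n = 4), which is -0.38 percentage points (p = 0.971 by a two-sided exact permutation test, 0.971 after adjustment over the 2 tests). Libraries with E6-E7 averaged 4.602% ± 2.51 (SD, n = 4) and those without it 6.43% ± 6.73 (SD, n = 4), which is -1.82 points (p = 0.743 by the exact permutation test, 0.971 adjusted). Y2 decided the first value, since without it the 3 remaining libraries with YAP1S127A, from 0.326% to 2.94%, all lay below the 4 without it (-3.95 points, p = 0.0571 by the exact permutation test, the smallest that 3 against 4 libraries allow, 0.114 adjusted). It also turned the second, to 1.38 points (exact permutation p = 0.571). As a share of Ptprc+ low-keratin cells the order was alike, from 0.183% in Y1 to 9.45% in Y2. As a share of all filtered cells the N and E libraries ran from 0.363% (E1) to 2.89% (E2), and EY2 at 0.161% lay close to Y1 at 0.129%, with Y2 again highest at 4.59%.

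**Figure D1:**
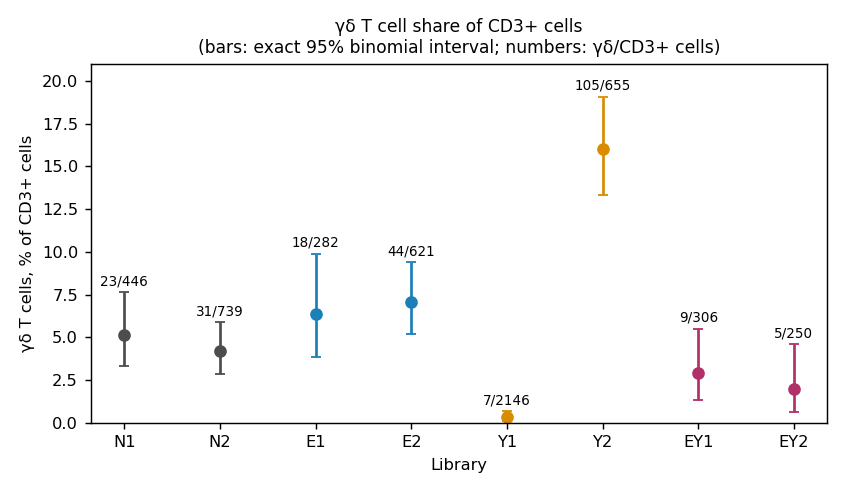
γδ T cells as a percentage of CD3+ low-keratin cells in each of the 8 libraries, with exact 95% binomial intervals (counting error only) and the counts behind each point. The N and E libraries lie between 4.19% and 7.09%, while Y1 lies at 0.326% and Y2 at 16.03%.

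Tcrg-V6, which the gate did not use, was detected in 87 of 242 members. Trdv4 and Cd163l1 were detected together in 168 of 242 members (69.4%), and 22 members (9.09%) held neither, of which 11 came from E2, 6 from Y2, 3 from N2, and 1 each from Y1 and EY1. Among the 87 members, 84 (96.6%) held Trdv4 and 79 (90.8%) held Cd163l1. Because both genes are part of the gate and the split was made on these cells, the contrast is a description with no test.

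The 22 cells without Trdv4 and Cd163l1 more often held some natural killer and type 1 genes, mostly through the 11 of them in E2. Nkg7 was detected in 63.6% of them against 9.55% of the 220 others, Klrd1 in 50% against 7.27%, Xcl1 (a chemokine for cross-presenting dendritic cells) in 31.8% against 2.73%, and Ifng in 31.8% against 1.82%. E2 gave 10 of the 14 Nkg7+, 7 of the 11 Klrd1+, 5 of the 7 Xcl1+ and 6 of the 7 Ifng+ cells, and the 6 cells of Y2 held none of these genes. Without E2 the shares were 36.4% against 8.56% for Nkg7, 36.4% against 6.42% for Klrd1 and 9.09% (1 of 11 cells) against 0.535% for Ifng. Gzma was detected in 0 of 22 cells against 2.27%, and Gzmb in 13.6% against 9.55%. Genes of the IL-17 programme ran the other way. Maf was detected in 40.9% against 84.5%, Ccr2 in 31.8% against 76.8%, and Il1r1 in 18.2% against 48.6%, although 5 of the 6 cells of Y2 held Maf and 5 held Ccr2. The receptor segments differed as well, with Tcrg-V6 in 0 of 22 cells (which allows up to 13.6%) against 39.5%, Tcrg-V1 in 27.3% against 7.27%, and 5830411N06Rik (the scavenger receptor SCART2) in 31.8% against 0.455%.

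**Figure D2:**
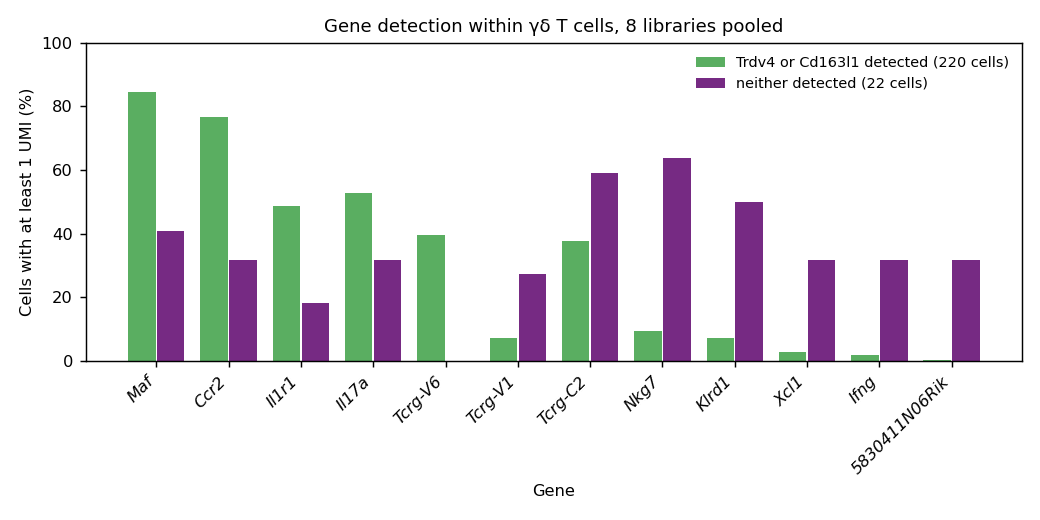
Percentage of γδ cells with at least 1 UMI of each gene, for the 220 members with Trdv4 or Cd163l1 and the 22 members with neither. Nkg7 and Klrd1 are more often detected in the 22 cells (63.6% and 50%, with 10 of the 14 Nkg7+ and 7 of the 11 Klrd1+ cells from E2), Maf and Ccr2 in the 220 (84.5% and 76.8%); the split uses gate genes, so no test was made.

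Il17a and Ifng were not detected in the same cell. Of the 242 members, 123 held Il17a, 26 held Il17f and 23 held both, whereas 11 held Ifng and none held Ifng with Il17a. Ifng was concentrated in E2, with 9 of the 11 cells. Areg (amphiregulin, an epidermal growth factor receptor ligand that promotes epithelial repair) was detected in 65 members, 47 of them with Il17a, and 34 of these 47 came from Y2.

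To place γδ cells beside other T cells of the same tissue, UMIs were summed per library and compared with CD4 and CD8 T cells. The comparison used the same 5 libraries for each class (N1, N2, E1, E2 and Y2, those with at least 10 members). The CD4 class did not exclude regulatory T cells, and Foxp3 was detected in 10.9% (N1) to 51.0% (E1) of its cells. The part of regulatory T cells in the differences from CD4 T cells was not tested. Of 6233 genes tested against CD4 T cells, 629 (10.1%) passed an adjusted p of 0.05 by edgeR's quasi-likelihood test, 299 higher in γδ cells (4.80%) and 330 lower (5.29%). Against CD8 T cells, 917 of 6081 genes (15.1%) passed, 440 higher (7.24%) and 477 lower (7.84%). The median log2 fold change over all genes was -0.02 against CD4 and -0.03 against CD8 T cells. Without Y2, 393 and 742 genes passed, and without the 2 Cd74-rich cells 737 and 1018. DESeq2 called 474 and 763. Both comparisons use the same γδ sums, and the p-values measure the spread between these libraries.

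Of a list of 14 γδ receptor segments, 4 outside the gate were tested in each comparison, and all 4 were higher in γδ cells. In the CD4 sums Tcrg-V6 had no UMI and Tcrg-V1 had 1 UMI in E2 and none in N1, N2, E1 and Y2. These 2 genes thus passed the low-count filter through the γδ sums, which largely fixed their direction against CD4 T cells. Tcrg-V6 was at 110 and 151 CPM in the N libraries, 123 and 95.9 CPM in the E libraries and 122 CPM in Y2. It had no UMI in any of the 5 CD4 sums, so that it was at least 154-fold higher against a floor of 3 UMIs over those sums. It was at 2.91 CPM in the CD8 T cells of N2 and at 0 in the other four (log2 fold change 6.58 ± 0.45 SE, adjusted p = 4.68e-08). Tcrg-C4, a constant segment, was at 107 to 246 CPM in γδ cells, above its 0.924 to 12.3 CPM in CD4 and 6.59 to 41.5 CPM in CD8 T cells. Trac was lower, at 15.3 to 67.3 CPM in γδ cells against 512 to 882 in CD4 T cells (log2 fold change -4.03 ± 0.26, adjusted p = 6.27e-08).

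Among 15 tested regulators of the IL-17 programme, 4 were higher and 2 lower than in CD4 T cells (median log2 fold change -0.01), and 7 were higher and 2 lower than in CD8 T cells (median 0.50). Sox13, a lineage factor of IL-17-producing γδ cells, was at 94.7 and 67.3 CPM in the N libraries, 76.6 and 54.1 CPM in the E libraries and 82.1 CPM in Y2, against at most 0.924 CPM in CD4 and 2.20 CPM in CD8 T cells (log2 fold changes 7.16 ± 0.55, adjusted p = 3.22e-07, and 6.71 ± 0.55, adjusted p = 3.33e-07). Zbtb16, which encodes the innate-like lymphocyte factor PLZF, was at 63.9 to 107 CPM in γδ cells and without a UMI in CD4 T cells, at least 108-fold higher against the floor. Neither factor overlapped between γδ cells and CD4 or CD8 T cells. In the CD4 sums Zbtb16 had no UMI, and Sox13 had 1 UMI in N2 and none in N1, E1, E2 and Y2. Both thus passed the low-count filter through the γδ sums, which largely fixed their direction against CD4 T cells. The same held for Sox13 against CD8 T cells. At such counts, under the floor of 3 UMIs, the fold change of Sox13 against CD4 T cells is a model estimate.

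Maf passed the test against CD8 T cells and Gata3 against CD4 T cells. Maf was at 477 to 599 CPM in γδ cells and 391 to 531 CPM in CD4 T cells (log2 difference 0.25 ± 0.15, adjusted p = 0.401), but at 45.5 to 130 CPM in CD8 T cells (2.96 ± 0.19, adjusted p = 3.56e-08). Gata3, a factor of type 2 cells, was lower than in CD4 T cells (-1.54 ± 0.22, adjusted p = 0.000211).

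Receptors for the cytokines that drive IL-17 release were among the higher genes. Of 20 tested cytokine and chemokine receptors, 9 were higher and 5 lower than in CD4 T cells (median 0.38), and of 17 tested against CD8 T cells 11 were higher and 3 lower (median 1.13). Il1r1 in γδ cells was at 205 and 146 CPM in the N, 107 and 113 CPM in the E libraries and 164 CPM in Y2, against 4.55 to 22.1 CPM in CD4 T cells (log2 difference 3.15 ± 0.25, adjusted p = 3.67e-07) and 0 to 11.0 CPM in CD8 T cells (5.74 ± 0.41, adjusted p = 7.22e-08). Il23r was at 72.9 to 158 CPM, against 4.55 to 22.8 CPM in CD4 (2.77 ± 0.31, adjusted p = 1.32e-05) and 0 to 6.59 CPM in CD8 T cells (4.82 ± 0.34, adjusted p = 6.49e-08). Neither gene overlapped between γδ cells and CD4 or CD8 T cells in any of these libraries.

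Il7r, the receptor for the survival cytokine IL-7, was at 919 to 1579 CPM in γδ cells, higher than in CD4 (log2 difference 0.72 ± 0.15, adjusted p = 0.00384) and CD8 T cells (2.04 ± 0.16, adjusted p = 2.77e-07). Among homing receptors, Cxcr6 was at 875 to 1515 CPM and higher by 1.57 ± 0.19 than in CD4 T cells (adjusted p = 3.66e-05) and by 0.47 ± 0.14 than in CD8 T cells (adjusted p = 0.0335), and Ccr2 was higher by 0.81 ± 0.21 (adjusted p = 0.0185) and 1.13 ± 0.21 (adjusted p = 0.000993). Ccr6, the receptor for the epithelial chemokine CCL20, had opposite signs, lower than in CD4 T cells by -1.45 ± 0.30 (adjusted p = 0.00448) and higher than in CD8 T cells by 1.99 ± 0.49 (adjusted p = 0.00961). Ramp1, a subunit of the receptor for the sensory neuropeptide CGRP, averaged 625 CPM in γδ cells, 308 CPM in CD4 and 82.3 CPM in CD8 T cells (1.12 ± 0.19, adjusted p = 0.000938, and 2.87 ± 0.16, adjusted p = 5.92e-09).

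**Figure D3:**
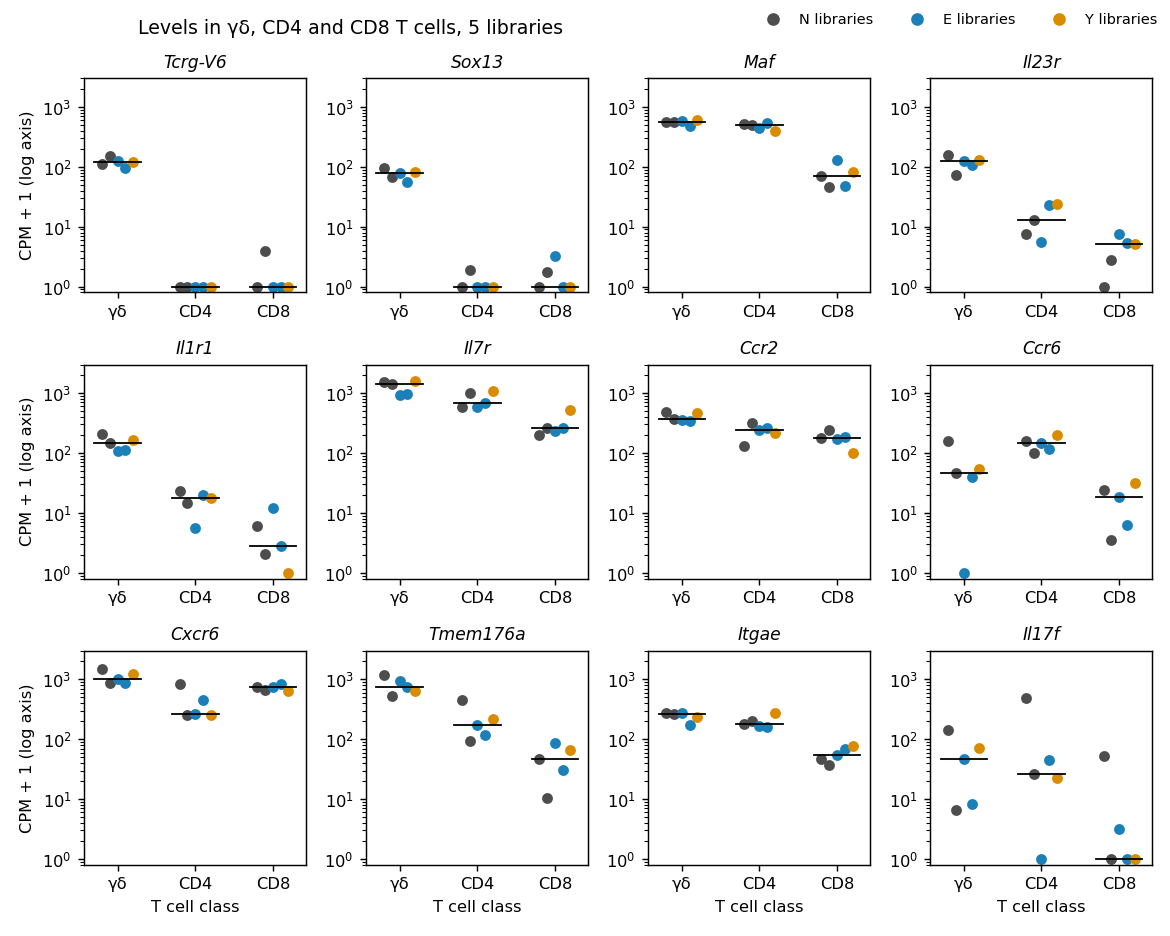
Levels of 12 genes in CPM (plus 1, log axis) in γδ, CD4 and CD8 T cells, each point the sum over 1 of the 5 libraries with at least 10 γδ cells and each line the median. Il1r1, Il23r, Sox13 and Tcrg-V6 do not overlap between γδ and the other T cells, while Maf and Itgae overlap with CD4 T cells only.

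Other genes known from IL-17-producing γδ cells were mostly higher. Of 15 tested, 10 were higher and none lower than in CD4 T cells (median log2 fold change 1.94), and 12 were higher and none lower than in CD8 T cells (median 2.28). Tmem176a was at 1184 and 522 CPM in the N, 950 and 745 CPM in the E libraries and 637 CPM in Y2, above every CD4 value, of 91.5 to 454 CPM (2.11 ± 0.20, adjusted p = 3.37e-06), and every CD8 value, of 9.46 to 85.7 CPM (4.24 ± 0.28, adjusted p = 3.56e-08). Tmem176b, an adjacent and overlapping gene, was higher by 2.20 ± 0.20 and 4.19 ± 0.23. Kcnk1, a potassium channel, was at 46.7 to 174 CPM in γδ cells against at most 2.21 CPM in CD4 and 6.59 CPM in CD8 T cells. Kcnk1 thus passed the low-count filter through the γδ sums, which largely fixed its direction. Serpinb1a, a protease inhibitor, was higher by 2.02 ± 0.19 and 3.28 ± 0.25.

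Effector cytokines outside the gate did not follow as a group, with 2 of 16 tested higher and 5 lower than in CD4 T cells, and 3 of 15 higher and 5 lower than in CD8 T cells. Il17f was at 142 and 5.61 CPM in the N, 46.0 and 7.38 CPM in the E libraries and 69.6 CPM in Y2, did not differ detectably from CD4 T cells (-0.49 ± 0.53, adjusted p = 0.681), and was higher than in CD8 T cells (3.24 ± 0.73, adjusted p = 0.00510). Ifng was at 0 and 5.61 CPM in the N, 15.3 and 88.5 CPM in the E libraries and 0 in Y2, below the CD4 and CD8 T cells of the same library in all 5 (-2.31 ± 0.41 and -4.36 ± 0.43). Csf1, the macrophage growth factor, had no UMI in the γδ cells of these 5 libraries, at least 19.7-fold lower than in CD4 and 44.8-fold lower than in CD8 T cells against the floor. Il22 did not pass in either comparison (adjusted p = 0.141 and 0.973). Areg was at 552 and 466 CPM in the N, 0 and 81.1 CPM in the E libraries and 1572 CPM in Y2, and was higher than in CD8 T cells (2.71 ± 0.45, adjusted p = 0.000430) but not detectably different from CD4 T cells (-0.14 ± 0.54, adjusted p = 0.945).

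The cytotoxic programme was low beside CD8 T cells and split beside CD4 T cells. None of 15 tested genes was higher and 13 were lower than in CD8 T cells (median -3.11), while against CD4 T cells 3 of 11 were higher and 3 lower (median 1.03). The chemokine gene Ccl5, which belongs to the cytokine list, was lower too. In γδ cells it was at 0 and 584 CPM in the N, 0 and 472 CPM in the E libraries and 4.97 CPM in Y2, against 4457 to 7824 CPM in CD8 T cells (-5.24 ± 0.60, adjusted p = 9.20e-06 by edgeR). Klrk1, the activating receptor NKG2D that sees stressed epithelium, was higher than in CD4 T cells, at 320 to 506 CPM against 27.3 to 163 CPM (2.26 ± 0.29, adjusted p = 5.63e-05), and overlapped with CD8 T cells (-0.18 ± 0.23, adjusted p = 0.703).

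Activation and checkpoint genes were split. Of 16 tested, 5 were higher and 7 lower than in CD4 T cells, and 3 of 18 higher and 7 lower than in CD8 T cells. Pdcd1 (PD-1) was at 647 and 471 CPM in the N, 414 and 299.95 CPM in the E libraries and 468 CPM in Y2, above all CD4 (63.7 to 131 CPM, 2.15 ± 0.19, adjusted p = 1.06e-06) and all CD8 values (130 to 285 CPM, 0.999 ± 0.16, adjusted p = 0.000229). Tnfrsf4 (OX40) had UMIs in γδ cells of E2 alone among these libraries, at 2.46 CPM, against 348 to 1082 CPM in CD4 T cells (-9.36 ± 0.38, adjusted p = 2.28e-10). That γδ count lay under the floor of 3 UMIs, so the size of this fold change is a model estimate. Ctla4 was also lower (-2.42 ± 0.24 and -1.19 ± 0.23). The part of the Foxp3+ cells of the CD4 class in these differences was not tested.

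Position and activity genes gave further contrasts. Of 9 tested tissue residency genes, 2 were higher and none lower than in CD4 T cells. Against CD8 T cells they were split, with 4 of 10 tested higher and 4 lower. Itgae, the αE integrin that holds lymphocytes to E-cadherin, was at 175 to 276 CPM in γδ cells, like CD4 T cells (0.25 ± 0.18, adjusted p = 0.490) and above CD8 T cells (36.4 to 77.0 CPM, 1.92 ± 0.21, adjusted p = 6.85e-06). Of the genes for leaving tissue and entering lymph nodes, none was higher, and 4 of 9 were lower than in CD4 and 4 of 8 lower than in CD8 T cells. Immediate-early genes, which can also respond to tissue dissociation, were higher in 4 of 15 against CD4 and 9 of 15 against CD8 T cells, with Fos at 713 to 1452 CPM against 295 to 670 CPM in CD4 and 226 to 320 CPM in CD8 T cells.

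Cell cycle and interferon genes were lower in γδ cells. Of 20 tested cell cycle genes, 9 were lower than in CD4 T cells, and of 19 tested 11 were lower than in CD8 T cells, with none higher in either. Mki67 was at 0 and 16.8 CPM in the N, 107 and 113 CPM in the E libraries and 39.8 CPM in Y2, below the 157 to 277 CPM of CD4 T cells (-1.76 ± 0.36, adjusted p = 0.00383). Of 16 tested interferon-stimulated genes, 7 were lower than in CD4 and 15 lower than in CD8 T cells, with none higher (medians -0.79 and -1.47). Ifi27l2a was at 31.6 to 214 CPM in γδ cells against 737 to 6518 CPM in CD4 T cells (-4.71 ± 0.23, adjusted p = 1.47e-09).

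**Figure D4:**
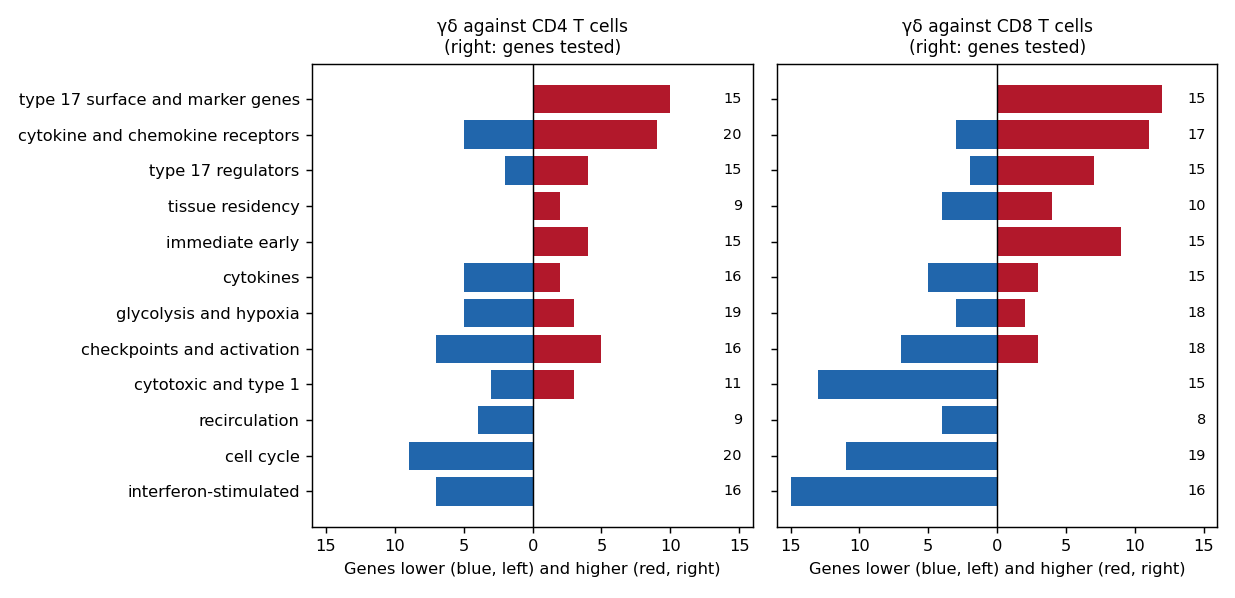
Number of genes of each of 12 gene lists that were higher (red) or lower (blue) in γδ cells than in CD4 and CD8 T cells at an adjusted p of 0.05 by edgeR, with the number tested at the right. Genes known from IL-17-producing γδ cells were higher in 10 and 12 of 15 and lower in none, and cytotoxic genes were lower than in CD8 T cells in 13 of 15.

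By size alone, the largest differences that held in all 5 libraries repeated these themes and added others. Beside Tcrg-V6, Zbtb16, Sox13 and Kcnk1, Clnk, a signalling adaptor of lymphocytes and mast cells, was at 61.3 to 174 CPM in γδ cells and at most 0.924 CPM in CD4 T cells (7.44 ± 0.53, adjusted p = 1.50e-07), and Abi3bp, an extracellular matrix protein, at 83.6 to 189 CPM against at most 3.70 CPM (6.73 ± 0.47, adjusted p = 1.50e-07). Clnk and Abi3bp also passed the low-count filter through the γδ sums, which largely fixed their direction. Their fold changes at such low CD4 levels are model estimates. Lower in γδ cells were Tff1, at most 7.46 CPM against 364 to 851 CPM in CD4 T cells (-7.33 ± 0.36, adjusted p = 1.47e-09), and Themis, a thymocyte selection protein, at a mean of 1.48 CPM against 64.3 CPM in CD4 and 138 CPM in CD8 T cells (-4.55 ± 0.46 and -5.73 ± 0.38).

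For the question of whether oncogene expression in the epithelium was accompanied by a change in its γδ cells, the 5 libraries with at least 10 members were compared. This left both N and both E libraries, Y2 alone for Y, and no EY library, so that the E6-E7 effect was the contrast of E with N and the YAP effect the contrast of Y2 with N. The lone Y library was assumed to vary like the N and E libraries.

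In E against N, 26 of 3944 genes (0.659%) passed by edgeR, 13 higher and 13 lower, and 263 had an unadjusted p under 0.05. DESeq2 called 1 gene, AW112010. Cell division genes stood among those that rose. Stmn1 (stathmin, which destabilises microtubules) was at 63.1 and 56.1 CPM in the N libraries and at 444 and 337 CPM in the E libraries (log2 fold change 2.66 ± 0.43, adjusted p = 0.0217), and Mki67 at 0, 16.8, 107 and 113 CPM (3.10 ± 0.67, adjusted p = 0.0494). The E libraries were higher than the N libraries without overlap, and Y2 lay between, at 102 CPM and 39.8 CPM. Of 13 tested cell cycle genes these 2 rose and none fell (median log2 fold change 2.19, against -0.00 over all genes).

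The other division genes called were Pclaf, a partner of the replication clamp (0 and 11.2 CPM in N, 123 and 187 CPM in E), Prc1, a cytokinesis protein (0 in both N, 107 and 81.1 CPM in E), and the histone genes Hist1h2ap and Hist1h2ae, whose near-identical copies can share reads. Mki67 was detected in 24 members in all, 8 of them in E2 and 2 in E1. Of 12 tested interferon-stimulated genes 2 also rose (median 1.61), Ifit1 from 0 and 5.61 CPM to 169 and 98.3 CPM (4.63 ± 0.88, adjusted p = 0.0261) and Ifi27l2a from 31.6 and 39.3 CPM to 169 and 214 CPM (2.39 ± 0.47, adjusted p = 0.0290). The level of Ifi27l2a in CD3-negative cells of the same libraries was 13.0 times that in the members, and the part of free RNA in its change was not tested. Gzmb (granzyme B) had no UMI in N and 8 and 38 UMIs in E1 and E2, at least 7.85-fold higher against the floor of 3 UMIs over both N libraries.

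Areg fell in E, from 552 and 466 CPM in the N libraries to 0 and 81.1 CPM in the E libraries (log2 fold change -3.05 ± 0.52, adjusted p = 0.0217), with 35, 83, 0 and 33 UMIs behind these values. The groups did not overlap. At a minimum of 200 genes per cell, where Y1 reached 10 members and also entered the fit, Areg was at -2.95 by edgeR (adjusted p = 0.333). None of the genes that fell kept its call there. Over all alternatives by edgeR or DESeq2 the adjusted p of Areg ran from 7.33e-11 to 0.9998. Stress and immediate-early genes fell too, with Hspa1a and Hspa1b, near-identical heat shock genes, at -3.07 ± 0.54 and -3.77 ± 0.73 and Atf3 at -2.37 ± 0.47 (adjusted p = 0.0290), 3 of 15 tested in that list (median -0.55). Nr4a2, induced by receptor signalling, fell by 2.60 ± 0.53. H2-Aa, H2-Ab1, H2-Eb1 and Mfge8 were also called lower, and they came from the 1 Cd74-rich cell of N2, as H2-Aa shows, at 2165.8 CPM in N2 and 31.6, 15.3 and 4.92 CPM in the other N library and the E libraries. Without the 2 Cd74-rich cells 13 of the 26 genes were called, Areg among them (-3.08, adjusted p = 0.0113) and Gzmb, Mki67, Prc1, Atf3 and Nr4a2 no longer.

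These counts rested on few libraries. Without Y2, which enters through the shared estimate of spread and the filter on low counts (1865 genes tested), no gene was called and 131 had an unadjusted p under 0.05; without N1, E1, N2 and E2 in turn 83, 68, 37 and 28 genes were called, with 26, 26, 12 and 11 of the original 26 among them.

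In Y2 against N, 5 of 3944 genes (0.127%) passed by edgeR, 3 higher (0.0761%) and 2 lower (0.0507%), and 230 had an unadjusted p under 0.05; DESeq2 called none, with 35 at an unadjusted p under 0.05. Tnfrsf9 (4-1BB, an activation-induced costimulatory receptor) was at 15.8 and 44.9 CPM in the N libraries and 390 CPM in Y2 (log2 fold change 3.37 ± 0.55, adjusted p = 0.0228). Tpi1, a glycolytic enzyme, was at 78.9, 44.9 and 338 CPM (2.57 ± 0.46, adjusted p = 0.0395). Ckb, a creatine kinase of the IL-17-associated list, had 13 and 22 UMIs in N1 and N2 and none in Y2, at least 19.4-fold lower against the floor.

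The other called genes were sex-linked. Xist was at 1072 CPM in Y2, 78.6 in N2 and 7.38 or less elsewhere, and the Y-linked Eif2s3y was at 47.3 CPM in N1, 89.8 in N2 and without a UMI in Y2. Sex thus moved with this comparison, and its part in the other 3 calls was not tested. Without N1, N2, E1 and E2 in turn 70, 14, 52 and 40 genes were called. In the 7 cells of Y1, which were not in this fit, Tnfrsf9 had no UMI and Tpi1 was at 152.7 CPM from 4 UMIs, above both N libraries.

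Il17a was tested in members chosen without it. The YAP effect here was again Y2 against N, with which sex moved, and the part of sex was not tested. In members by the full gate its level was 1610 and 533 CPM in the N, 674 and 870 CPM in the E, 0 and 1403 CPM in the Y and 1861 and 1246 CPM in the EY libraries, so that the N libraries lay far apart and within the range of the others. With Il17a left out of the gate, the YAP effect was 0.44 ± 0.46 on the log2 scale (adjusted p = 0.9999) and the E6-E7 effect -0.39 ± 0.40 (adjusted p = 0.937, both by edgeR). The YAP effect on Il17a turned on which N library was kept, at 1.33 without N1 (adjusted p = 0.0304) and -0.15 without N2, each then a comparison of Y2 with 1 N library and with the spread taken from E1 and E2.

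γδ cells of the EY epithelia could be compared with N only after lowering the limit to 5 members per library, a choice made after seeing the data, with 9 cells in EY1 and 5 in EY2. Then 5 of 1622 genes (0.308%) passed, all higher, and 213 had an unadjusted p under 0.05. DESeq2 called 14, the 5 included. Gzmb had 57 UMIs in EY1 and 4 in EY2 against none in N, at least 44.5-fold higher against the floor with both EY libraries pooled and 21.1-fold for EY2 alone. Hif1a, the oxygen-sensing transcription factor, was at 78.9 and 129 CPM in the N libraries and 757 and 525 CPM in the EY libraries (2.61 ± 0.41, adjusted p = 0.00939), and Tpi1 at 78.9, 44.9, 599.5 and 525 CPM (3.36 ± 0.49, adjusted p = 0.00878). These were 2 of 13 tested glycolysis and hypoxia genes (median 1.39, against -0.04 over all genes).

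Il2ra, the high-affinity IL-2 receptor chain, was at 110 and 61.7 CPM in the N libraries and at 484 and 459 CPM in the EY libraries (2.61 ± 0.44, adjusted p = 0.0150). The fifth gene, S100a8, is a neutrophil gene, and neutrophil markers summed highest in the γδ cells of EY1 and EY2; the part of free RNA was not tested. Leaving out EY1, 5 other genes were called and none of these; leaving out EY2, 26 were called with all 5 among them. Tnfrsf9 was at 663 and 262 CPM in EY1 and EY2, and Areg at 715 and 1312 CPM, values given without a call.

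**Figure D5:**
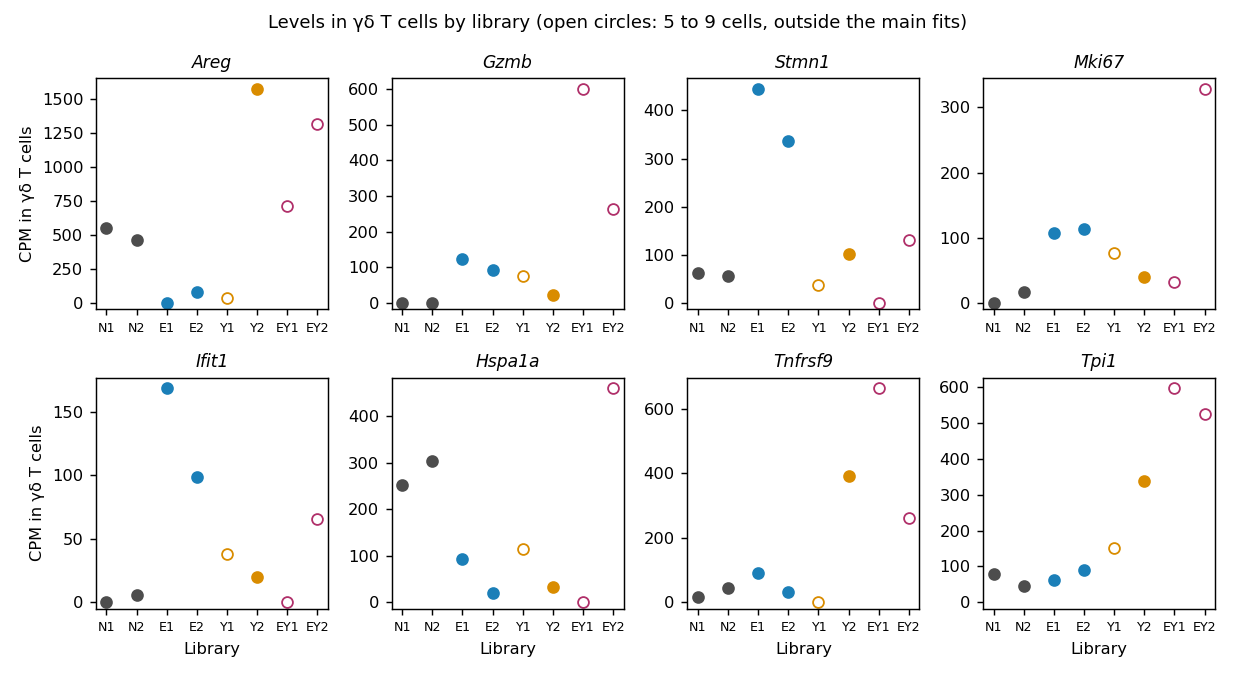
CPM of 8 genes in the γδ cells of each of the 8 libraries, with open circles for Y1, EY1 and EY2, which hold 5 to 9 cells. Stmn1 and Mki67 are higher in E1 and E2 than in N1 and N2, Areg is lower in E1 (0 CPM) and E2 (81.1 CPM), and Tnfrsf9 and Tpi1 are higher in Y2 than in N.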

How the data were processed

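Raw UMI counts per gene and cell, deposited by the authors as filtered matrices, were used as deposited; per the file headers they were made with Cell Ranger 5.0.0, and per the submitters' processing notes on mm10. Cells kept had between 1000 and 5500 genes, no more than 30000 UMIs and up to 7% of UMIs from mitochondria. The members and gene lists were chosen with earlier results of these data known. UMIs were summed per library over γδ, CD4 (Cd4+, no Trdc or Cd8) or CD8 (Cd8+, no Trdc or Cd4) cells and tested with edgeR 4.0.16 (glmQLFit and glmQLFTest, TMM, filterByExpr, Benjamini-Hochberg over all genes tested, threshold 0.05), with a library term against CD4 and CD8 T cells; gate genes were not tested. Errors of log2 fold changes are standard errors. Libraries needed 10 members. DESeq2 1.42.0 was the alternative. Shares were compared by exact permutation over libraries. Named were all called genes of the lists, and the 6 largest rises and falls at 50 CPM or more, without overlap between arms and with a level in CD3-negative cells of at most 5 times that of the members. Some genes of the lists are not reported here. AW112010 and S100a8, named for their small counts, were chosen after their values were seen. Cells were thinned to 2000 UMIs for the thinned shares, and the scripts were tested on simulated data. Gene positions are from GENCODE on GRCm38. R 4.3.3, Python 3.11.15, scanpy 1.11.5 and scipy 1.17.1 were used.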

Additional observations from a re-analysis of the deposited data

Results flagged for a closer look

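The share of γδ cells among CD3+ cells in Y2, 16.03%, stood apart from the other 3 libraries with YAP1S127A (Y1, EY1 and EY2, 0.326% to 2.94%): its gap to the nearest of them was 0.833 of the range of the 4, above Dixon's 95% critical value for 4 samples. It was the 1 flag among 8 sets of values, the share and the Il17a level in each of 4 overlapping groups of libraries. Chance flags about 1 set in 20. Among the libraries without E6-E7 the share of Y2 was also highest, with a gap of 0.692 of the range, and was not flagged. The γδ cells of Y2 held Xist at 1072 CPM and no Eif2s3y UMI, whereas those of Y1, EY1 and EY2 held no Xist UMI. Eif2s3y had 6 UMIs in EY1, 1 in EY2 and none in Y1, so the γδ cells of Y1 held neither gene. The part of sex in the share was not tested.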

How the results depend on the processing

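No paired analysis was possible because, between transgene groups, the labels give no replicate number that groups share; the comparisons with CD4 and CD8 T cells were paired by library. The YAP difference in share became 0.096 points with cells thinned to 2000 UMIs, and ran from -3.95 to 1.29 points with 1 library left out; the E6-E7 difference ran from -3.86 to 1.38. Genes called for Y2 against N (the YAP effect), 5, were 0 by DESeq2, 54 with no low-count filter, 0 at a minimum of 200 genes per cell, 21 with at least 2 Trdc UMIs, 11 without the Cd74-rich members, 52 at 20 members or more, 0 with a mean per group at 5 members or more (7 in the additive fit, 2 of them among the 5), and 14 to 70 with 1 library left out. Genes called for E against N (the E6-E7 effect), 26, were 1, 75, 6, 44, 13, 68 and 0 in the same order, and 0 to 83 with 1 library left out. For EY against N, 5 became 14 by DESeq2, 22 with no filter, 8 at 200 genes, 9 with 2 Trdc UMIs and 25 without the Cd74-rich members, and 5 to 36 with 1 library left out. At 200 genes Y1 reached 10 members and entered the fits for Y and E against N, so that the Y arm was then Y1 and Y2. At 5 members Y1, EY1 and EY2 entered these fits as well. The causes were not tested. Against CD4 T cells 393 to 538 genes were called with 1 library left out, and against CD8 T cells 739 to 807; every other alternative run stayed within 1.5 times of 629 and 917. The YAP effect on Il17a was -0.19 at 200 genes, where Y1 (10 members) was also in the fit. It ran from -0.15 to 1.33 with 1 library left out, and the E6-E7 effect was 0.26 at 5 members and ran from -0.98 to 0.52. No other named gene changed direction under any alternative run. The settings on Cd74 and on 5 members were chosen after seeing the data. EY against N at 20 members and the YAP effect without Y2 could not be fitted, since no library was left. Y1, EY1 and EY2 rest on 5 to 9 γδ cells each.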

Other observations

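Lipid and repair genes gave a further view of the γδ cells. Plin2, a coat protein of lipid droplets, averaged 94.2 CPM in γδ cells, 34.5 CPM in CD4 and 16.4 CPM in CD8 T cells, higher by 1.31 ± 0.25 (adjusted p = 0.00230) and 2.44 ± 0.25 (adjusted p = 2.80e-06) by edgeR, and it was the 1 gene of 7 tested lipid genes that was higher in each comparison. Odc1, the first enzyme of polyamine synthesis, was lower, at 32.0 CPM against 163 CPM in CD4 and 70.1 CPM in CD8 T cells (-2.12 ± 0.26 and -1.03 ± 0.26). Glycolysis and hypoxia genes were mixed, with 3 of 19 tested higher and 5 lower than in CD4 T cells (median -0.26) and 2 of 18 higher and 3 lower than in CD8 T cells (median -0.02). Hk2 and Ero1l were higher than in both, with Ero1l at 180 CPM against 91.1 and 47.4 CPM, and Gapdh and Eno1 were lower than in both.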
